A study of Gasterosteus aculeatus with 12 samples.

Results

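Kidneys of freshwater threespine sticklebacks (*Gasterosteus aculeatus*) held in brackish water (FW11K) were compared with kidneys of saltwater sticklebacks held in sea water (SW33K). The FW11K fish came from a freshwater lake population (Davis, California) and were kept at 11 g/L, and the SW33K fish were from Bodega Bay (California) and were kept at 33 g/L. All were adult females acclimated for 30 days in well water mixed with synthetic sea salt, with no other agent. Each group had 3 libraries, each from 1 fish by the study's methods, so that the comparison took 6 of the 12 libraries of the series, chosen by the population and salinity in their titles. The other 6 libraries were from freshwater fish at 0 g/L (FW00K) and at 33 g/L (FW33K), and they entered the fit and are named where they bear on a result. Population, salinity and an alignment setting differed together between the groups, 2 mismatches being allowed for reads of freshwater fish and 3 for those of saltwater fish, and these cannot be told apart.

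The kidney of a bony fish has more than one task. Nephrons filter blood and reclaim or secrete ions, and between them lies blood-forming and immune tissue, which in mammals sits mostly in bone marrow and spleen. In dilute water the kidney excretes water and takes salt back from the filtrate; in sea water little urine is made, and divalent ions are secreted into it. Proteins made for the cell surface or for export are folded in the endoplasmic reticulum (ER), where chaperones and sensors of unfolded protein act.

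Expression was measured by RNA sequencing as FPKM (fragments mapped to a gene, scaled to its transcript length and to all mapped fragments of the library). Differences are on the log2(FPKM + 1) scale, SW33K minus FW11K, with the standard error (SE) and the adjusted p of limma. On this scale the change of genes near or under 1 FPKM is understated. Values of single libraries are given in the order of replicates 1, 2 and 3. A gene symbol is that of the human gene to which the study assigned the stickleback gene, and "(1 of 2)" numbers the stickleback copies of 1 human gene. In bulk kidney RNA, fewer cells of a type and less RNA per cell cannot be told apart.

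Replicate 1 stood apart from replicates 2 and 3 in both groups, and in FW00K and FW33K as well. Replicates 2 and 3 correlated at r = 0.992 in FW11K and 0.991 in SW33K over the tested genes, and above 20 FPKM their median absolute log2 ratio was 0.0413 and 0.038. With replicate 1 this ratio was 0.643 to 0.653 in FW11K and 0.333 to 0.339 in SW33K. In FW00K and FW33K replicates 2 and 3 correlated at 0.990 and 0.991, and their ratio was 0.0408 and 0.0363. It was 0.323 to 0.364 there with replicate 1. FW11K replicate 1 correlated with the other FW11K libraries at 0.865 and 0.873, and with the SW33K libraries at 0.874 to 0.892. SW33K replicate 1 correlated with its own group at 0.934 and 0.940. In that library 20 genes took 33.1% of all FPKM, against 15.6% and 15.8% in the other SW33K libraries and 18.0 to 19.8% in FW11K, and the median gene stood at 5.43 FPKM against 11.0 and 10.6 and against 10.3 to 11.8. By the read numbers that the study lists, FW11K replicate 1 was by far the least deeply sequenced of these libraries, so its values are the least precise, and the part of depth in what set it apart was not tested. If replicates 2 and 3 are not separate samples, the p-values are too small, so calls are also given with the mean of replicates 2 and 3 taken as 1 sample in every group ("averaged").

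Genes that differed were mostly higher in FW11K in the deposited values, and this split moved with the scaling of the libraries. Of 15503 tested genes, 1961 (12.6%) had an adjusted p under 0.01 in limma. Of these, 340 (2.19% of those tested) were higher in SW33K and 1621 (10.5%) were higher in FW11K, so that 17.3% of the calls were higher in SW33K. After median-ratio scaling, which sets the typical gene to the same level in each library, 3254 genes (21%) were called, 1469 (9.48%) higher in SW33K and 1785 (11.5%) higher in FW11K, and the share higher in SW33K was 45.1%. The median difference over all tested genes was −0.28 before and 0.01 after scaling, and the size factor of SW33K replicate 1 was 0.576 against 1.09 to 1.23 in the other 5 libraries. Without SW33K replicate 1 the deposited values gave 1963 calls, 41.2% of them higher in SW33K, with a median difference of −0.01.

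With both scalings 1778 genes (11.5%) were called, 331 (2.14%) higher in SW33K and 1447 (9.33%) higher in FW11K, and none changed sign. Among these 1778, deposited differences were over 4-fold in 122 genes higher in SW33K and 827 higher in FW11K. Another 1476 genes were called only after scaling, 1138 of them higher in SW33K. In the deposited values alone 183 were called, 174 of them higher in FW11K. The split of the 1778 is thus not free of the scaling. The 3 FW11K values did not overlap the 3 SW33K values in 5724 genes (36.9%) of the deposited data, 1163 (7.5%) with SW33K and 4561 (29.4%) with FW11K higher, and in 7563 (48.8%) after scaling, 3726 (24%) and 3837 (24.8%). The number of calls depended on which libraries were present. Leaving out FW11K replicate 1 raised it to 3463 (789 higher in SW33K), and leaving out FW11K replicate 2 or 3 lowered it to 824 or 811. Without SW33K replicate 2 or 3 there were 1295 and 1263 calls. With replicates 2 and 3 averaged, 220 genes (1.42%) were called, 18 (0.116%) higher in SW33K and 202 (1.3%) higher in FW11K, and all 220 were among the 1778. After scaling as well, none of the averaged values passed in limma, while 3695 genes had an unadjusted p under 0.05 and 459 an adjusted p under 0.05. A set of 651 genes, 84 higher in SW33K, was called in both scalings whichever 1 of the 12 libraries was left out.

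**Figure D1:**
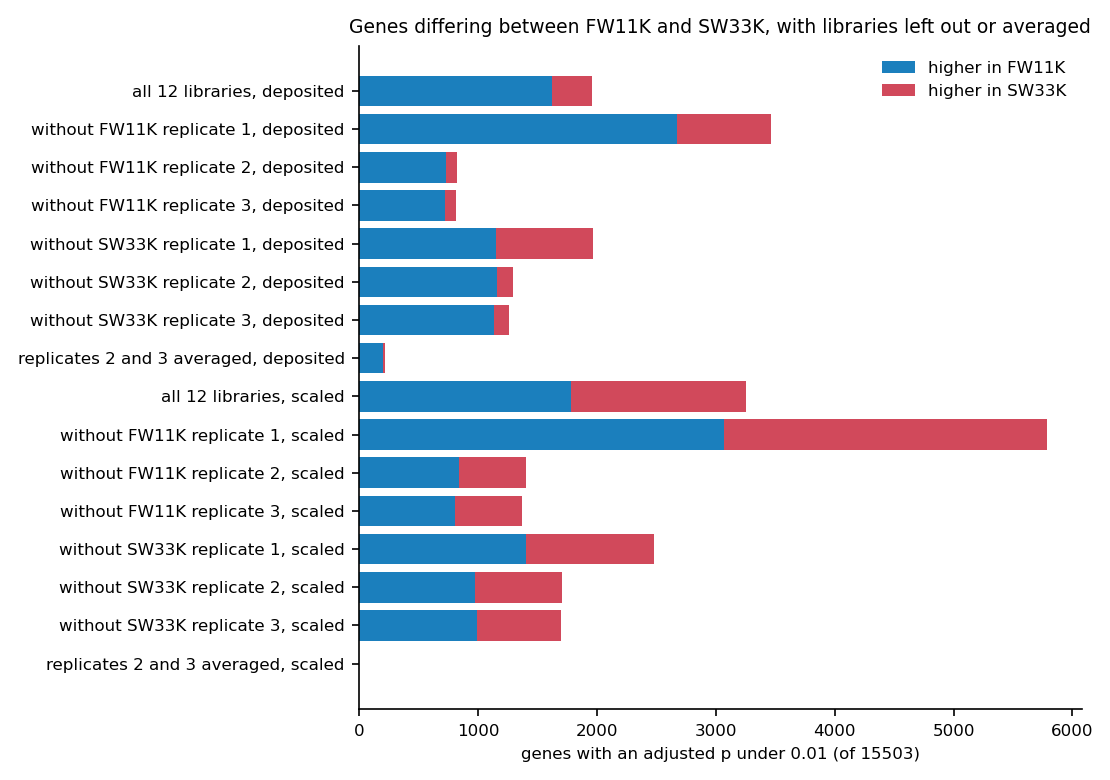
Number of genes with an adjusted p under 0.01 (horizontal axis, of 15503 tested) in FW11K against SW33K, stacked by the group in which they were higher. Bars are for all 12 libraries, with each FW11K or SW33K library left out, and with replicates 2 and 3 averaged, in deposited and scaled values. Genes higher in SW33K (red) take 17.3% of the top bar and 45.1% of the bar for all libraries after scaling, and the averaged bars are the shortest, at 220 and 0.

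By the distance 1 − r over the 2000 most variable genes, libraries of different groups were 0.490 apart on average and libraries of 1 group 0.161. The difference of 0.330 had a one-sided exact permutation p of 0.1, the smallest that 3 against 3 can give, and it was 0.2 without any 1 of the SW33K libraries, where the smallest is also 0.1. FW11K replicate 1 was nearer to the SW33K libraries (0.253 to 0.287) than to its own group (0.298 and 0.321), while FW11K replicates 2 and 3 lay 0.567 to 0.625 from SW33K.

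Among genes with a symbol, the largest fall exceeded the largest rise. *MIOX*, the kidney enzyme that breaks down inositol (an organic osmolyte), stood at 184, 258 and 254 FPKM in FW11K and at 0.25, 5.17 and 4.98 in SW33K. It had the largest fall of any gene with a symbol called in both scalings with no overlap between the groups, −6.01 ± 0.48 (SE; adjusted p = 3.01e-05; 0.000541 averaged). FW33K was lower still, at 0.0812, 0.0993 and 0.167 FPKM. *HIST1H1T*, a linker histone, was at 150, 234 and 229 FPKM in FW11K and at 3.08, 4.97 and 5.93 in SW33K (−5.19 ± 0.52, adjusted p = 5.14e-05). Both genes separated the groups in each library, which was a condition for entering this ranking and so is not a result. *CXCL12* (2 of 2), a chemokine that holds blood precursors in their niche in mammals, was at 383, 845 and 864 FPKM in FW11K and at 14, 37.2 and 38.9 in SW33K (−4.53 ± 0.46, adjusted p = 5.14e-05; 0.00285 averaged). The other 7 of the 10 largest falls were copies of the immunoglobulin light chain gene *IGKC*.

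Among the 10 largest rises, *DNAJC10*, an ER protein that reduces disulphide bonds, was at 104, 8.35 and 8.50 FPKM in FW11K and at 489, 497 and 494 in SW33K (4.55 ± 0.71, adjusted p = 0.00076; 0.0127 averaged). *SLC7A13*, an amino acid carrier of the kidney, was at 32.5, 8.93 and 9.03 FPKM against 180, 148 and 148 (3.41 ± 0.48, adjusted p = 0.000393). In these genes FW11K replicate 1 lay between the other FW11K libraries and SW33K. The same held for *ENPEP*, the peptidase that cleaves angiotensin II, with 40.1, 2.86 and 3.35 FPKM against 97.9, 136 and 137 (3.80 ± 0.69, adjusted p = 0.00179), and for *LONRF3*, with 26.5, 0.865 and 0.866 against 63.4, 49.5 and 49.8 FPKM (3.58 on the log2 scale). *HRH2* (1 of 2), a histamine receptor, was at 5.42, 0.563 and 0.304 FPKM in FW11K and at 9.64, 41.1 and 41.03 in SW33K (3.5 ± 0.61, adjusted p = 0.00148), whereas FW33K was at 0.285, 0.155 and 0.0979. In *NDUFS1* (1 of 2), a subunit of respiratory complex I, the library that stood off was instead SW33K replicate 1, with 23.2 FPKM against 169 and 170, and FW11K was at 7.29, 6.52 and 5.85 (3.56 ± 0.66, adjusted p = 0.00208). *COL9A2*, *ERLEC1*, *HID1* (1 of 2) and *DAP* made up the rest of the 10. With averaged replicates the limma adjusted p of these 10 ran from 0.012 (*SLC7A13*) to 0.0556 (*LONRF3*), so that each was above 0.01. *COL9A2*, *ENPEP*, *LONRF3*, *NDUFS1* (1 of 2) and *DAP* also lost the call in some single leave-out of the deposited values. Their largest adjusted p there was 0.0108 (*NDUFS1*) to 0.0317 (*LONRF3*).

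**Figure D2:**
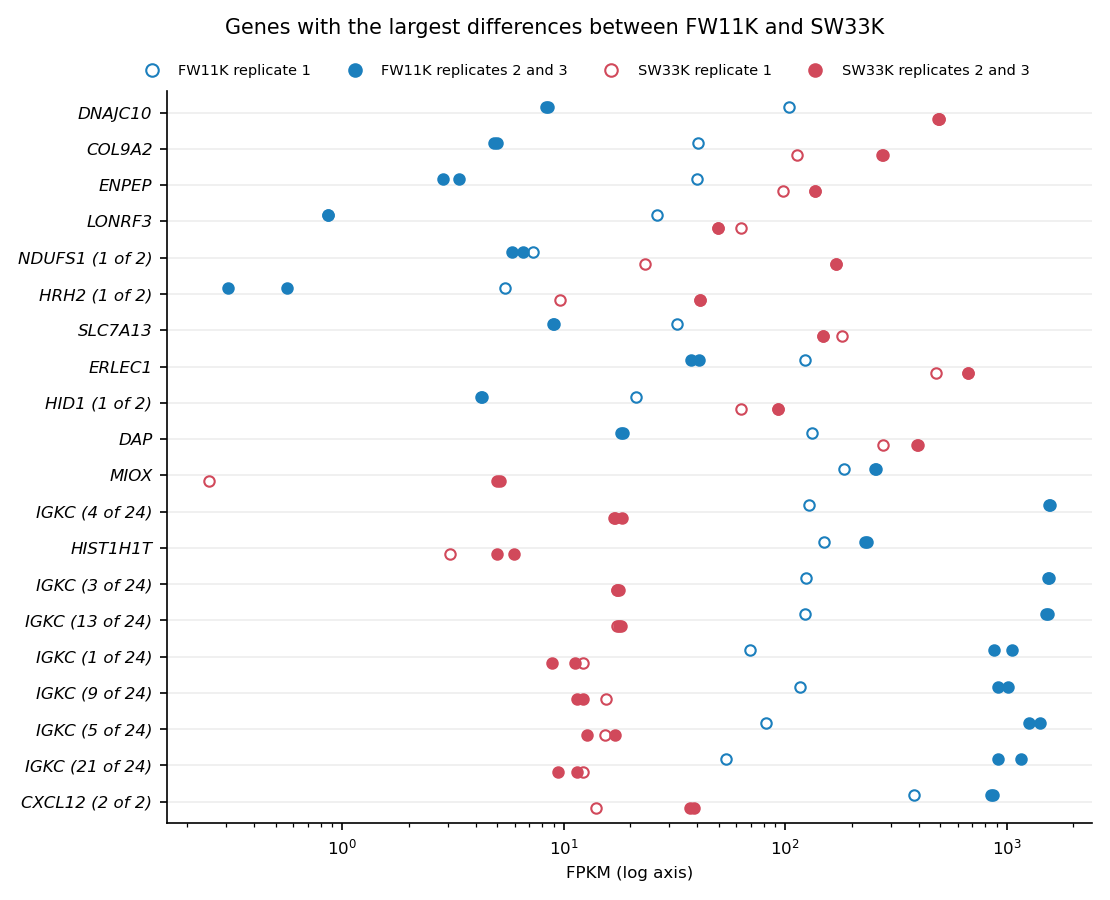
FPKM (horizontal log axis) of the genes that were most increased (upper 10) or most decreased (lower 10) in SW33K (red) relative to FW11K (blue). They were ranked among genes with a symbol called in both scalings with no overlap between the groups. Each library is 1 point, replicate 1 as an open circle. In *DNAJC10* the open FW11K circle at 104 lies between the other FW11K points, at 8.35 and 8.50, and SW33K at 489 to 497, and in *MIOX* the open SW33K circle is the lowest point at 0.25.

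Lists of genes were next read by function. They hold 380 matched genes, of which 366 passed the filter on low values, and were drawn mostly from genes that the study had picked as salt-responsive on these libraries, so their direction is not independent evidence. Each count below stands beside 2.19% of all tested genes called higher in SW33K and 10.5% called higher in FW11K (9.48% and 11.5% after scaling). Lists can hold only genes with a symbol, of which 316 of 1349 tested were called in the deposited values. That is a larger share than the 1961 of 15503 over all tested genes, so a list count above the latter can reflect this choice of genes.

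Genes of white blood cells were lower in SW33K. Of 29 tested leukocyte genes 25 were higher in FW11K and none in SW33K, with a median difference of −2.99 against −0.28 over all tested genes, and the counts were the same after scaling (median −2.69 against 0.01). With averaged replicates 15 were called. In single leave-outs 22 to 26 genes were called higher in FW11K, and 21 were called in both scalings whichever library was left out. *NCF1*, *CYBA* and *CYBB* are parts of the oxidase with which phagocytes kill microbes. *NCF1* was at 138, 302 and 312 FPKM in FW11K and at 6.62, 14.4 and 14.7 in SW33K (−4.27 ± 0.38, adjusted p = 3.01e-05). *CYBB* was at 303, 573 and 575 FPKM against 21.4, 29.3 and 28.8 (−4.09 ± 0.34, adjusted p = 3.01e-05). *CYBA* was at 232, 549 and 555 FPKM against 17.9, 27.9 and 26.8 (−4.07 ± 0.36, adjusted p = 3.01e-05). In these 3 genes the lowest FW11K value, that of replicate 1, was far above each SW33K value.

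*CORO1A*, which organises actin in leukocytes, was at 328, 784 and 805 FPKM in FW11K and at 42.7, 72.6 and 70.3 in SW33K (−3.28 ± 0.37, adjusted p = 9.2e-05). *BLNK*, an adaptor of the B cell receptor, was at 23.9, 30.3 and 31.7 FPKM against 3.34, 2.07 and 2.33 (−3.06 ± 0.24, adjusted p = 3.01e-05). Its replicate 1 was the lowest of FW11K, as in the genes above, but the highest of SW33K. The B cell scaffold *BANK1* stood at 0.311, 0.144 and 0.146 FPKM against 0.225, 2.20 and 2.27 (0.97 ± 0.37, adjusted p = 0.0725), and it was called higher in SW33K without SW33K replicate 1 (adjusted p = 0.00262). The leukocyte list includes 7 copies of *IGKC*, which may share reads (not examined), so that their single values are taken as uncertain. Together they were at 697, 9252 and 8592 FPKM in FW11K and at 107, 105 and 95.8 in SW33K. Without them 18 of 22 genes were called higher in FW11K in either scaling and 10 with averaged replicates, the median was −2.48, and the summed level was 1409, 3026 and 3070 FPKM in FW11K against 149, 260 and 253 in SW33K.

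Genes of red blood cells followed. Of 8 tested erythroid genes 7 were called higher in FW11K (8 after scaling, 2 averaged, 4 without FW11K replicate 2, FW11K replicate 3 or SW33K replicate 1), with a median difference of −2.66. *RHAG*, an ammonium channel of the red cell membrane, was at 161, 163 and 167 FPKM in FW11K and at 3.72, 19.9 and 17.5 in SW33K (−3.75 ± 0.65, adjusted p = 0.00139; 0.00754 averaged). *KLF1*, the transcription factor that drives erythroid genes, was at 16.1, 19.9 and 19.7 FPKM against 0.542, 2.34 and 1.95 (−2.97 ± 0.46, adjusted p = 0.000713). *SLC4A1* (1 of 2), the anion exchanger of red cells, was at 109, 153 and 156 FPKM against 4.31, 11.1 and 10.4 (−3.94 ± 0.83, adjusted p = 0.00428). SW33K replicate 1 was the lowest library in each of these genes. The globin gene *HBM* had its highest FW11K value in replicate 1, with 166, 78.1 and 84.4 FPKM against 18.8, 16.5 and 16.3 (−2.52 ± 0.31, adjusted p = 0.000164).

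Genes of dividing cells were also lower in SW33K. Of 24 tested, 13 were called higher in FW11K and none in SW33K in either scaling, with a median of −2.33. With averaged replicates 5 were called, and 9 were called in both scalings whichever library was left out. *CDK1*, the kinase that starts mitosis, was at 42.5, 87.4 and 85.4 FPKM in FW11K and at 2.54, 5.58 and 5.38 in SW33K (−3.71 ± 0.39, adjusted p = 6.19e-05; 0.00317 averaged). *PLK1*, a kinase of the spindle, was at 18.6, 47.4 and 45.2 FPKM against 0.908, 1.64 and 1.27 (−3.97 ± 0.59, adjusted p = 0.000552), and *CCNB1*, the cyclin partner of *CDK1*, at 15.7, 33.3 and 31.9 against 1.16, 1.89 and 1.96 FPKM (−3.33 ± 0.73, adjusted p = 0.00548). An exception was *CHEK1*, a checkpoint kinase, with 118, 25.8 and 25.3 FPKM in FW11K and 56.7, 221 and 228 in SW33K (1.71 ± 0.62, adjusted p = 0.06). FW11K replicate 1 lay within the SW33K range there, and without it *CHEK1* was called higher in SW33K (adjusted p = 0.00407).

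Leukocyte, erythroid and dividing-cell genes were each at a lower mean level in every SW33K library than in every FW11K library, and the part of one list in the difference of another was not tested. Genes of interferon response and antigen processing were called higher in FW11K in 9 of 12 cases in either scaling (median −2.15), in 3 without FW11K replicate 2 or 3, and in none with averaged replicates. *IRF3*, which switches on interferon genes, was at 13.9, 23.6 and 24.3 FPKM against 0.896, 3.58 and 3.40 (−2.64 ± 0.36, adjusted p = 0.000338). The 7 genes of this list that are copies of *PSMB8* or *TAPBP* may share reads with other copies of the same gene (not examined). Without these 7, 4 of 5 genes were called (median −2.18).

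**Figure D3:**
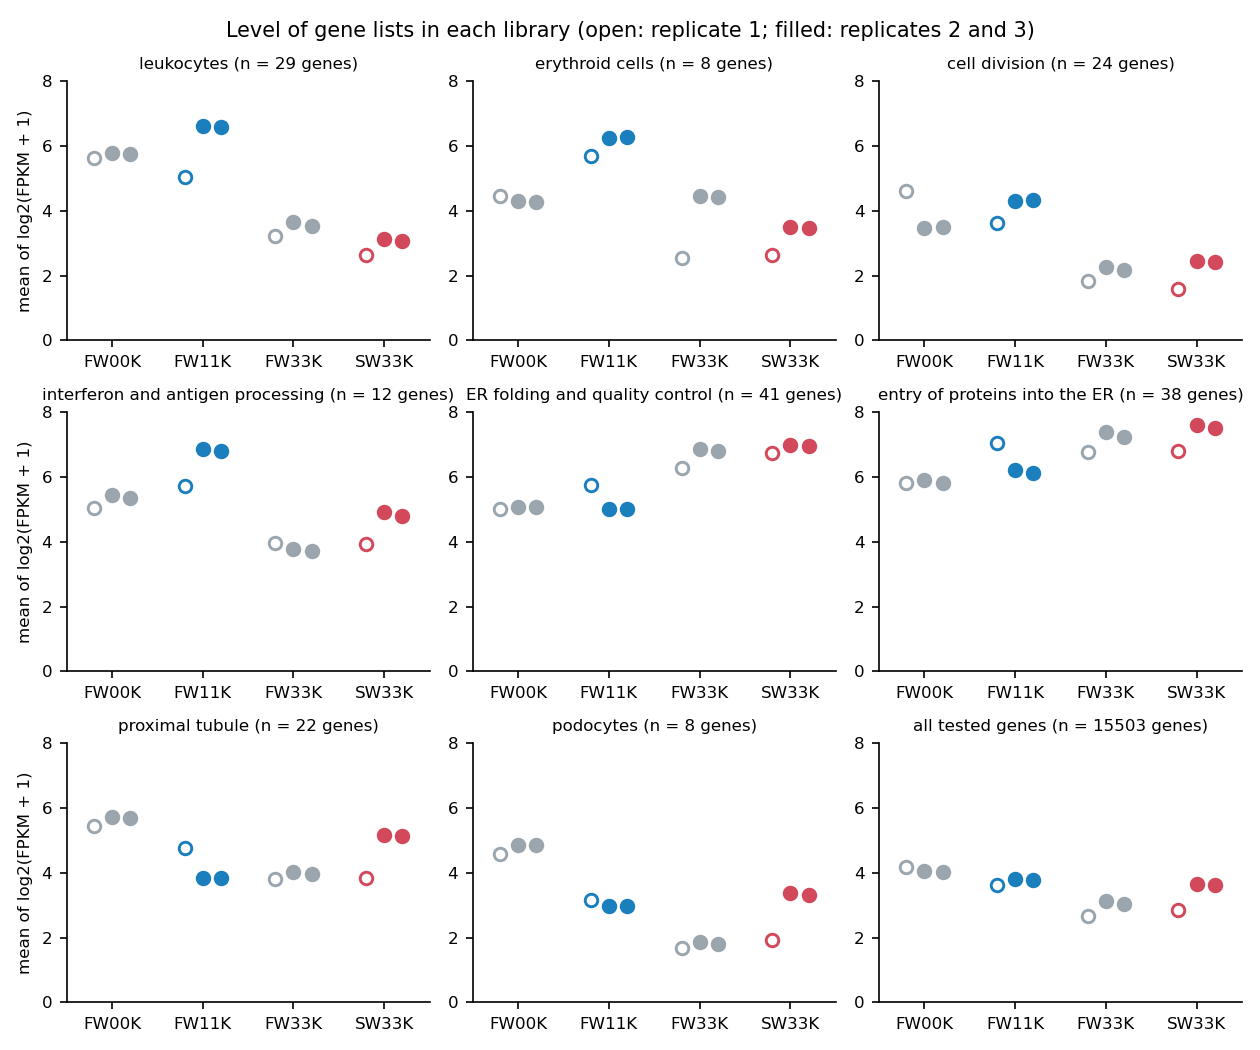
Mean log2(FPKM + 1) over 8 gene lists and over all tested genes (vertical axis) in each of the 12 libraries, by group, with replicate 1 as an open circle. In the leukocyte panel the FW11K libraries sit at 5.06, 6.61 and 6.59 and the SW33K libraries at 2.64, 3.14 and 3.07, and in the panel of ER folding genes FW11K sits at 5.76, 5.01 and 5.02 and SW33K at 6.74, 6.99 and 6.97.

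Genes of protein folding in the ER were higher in SW33K. Of 41 tested members 19 were called higher in SW33K and none in FW11K, and all 41 differences were above 0, with a median of 1.30. After scaling 33 were called (median 1.64), in single leave-outs of the deposited values 12 to 27 (12 without FW11K replicate 2 or 3), and 12 in both scalings whichever library was left out. With averaged replicates only *PDIA4* passed at 0.01, and averaged and scaled values put 8 genes under 0.05. *PDIA4*, a disulphide isomerase, was at 78.5, 59.6 and 57.0 FPKM in FW11K and at 841, 480 and 480 in SW33K (3.15 ± 0.31, adjusted p = 4.36e-05; 0.00686 averaged). *PDIA6*, of the same family, was at 136, 98.1 and 102 FPKM against 844, 907 and 906 (2.99 ± 0.30, adjusted p = 5.14e-05). In both genes the groups were far apart and FW11K replicate 1 was the highest FW11K library. The main ER chaperones were higher as well, *HSPA5* (BiP) at 139, 175 and 181 FPKM against 922, 889 and 883 (2.45 ± 0.33, adjusted p = 0.00027). *HSP90B1*, the ER form of the chaperone HSP90, was at 214, 142 and 142 FPKM against 1348, 1111 and 1125 (2.86 ± 0.29, adjusted p = 5.14e-05).

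The 3 sensors that detect unfolded protein in the ER had differences of 1.13 to 2.52, beside the list median of 1.30. *ERN1* (IRE1) was at 115, 24.1 and 25.2 FPKM in FW11K and at 189, 276 and 273 in SW33K (2.52 ± 0.48, adjusted p = 0.00234). *EIF2AK3* (PERK) was at 8.84, 5.33 and 6.03 FPKM against 14.8, 16.3 and 15.8 (1.13 ± 0.25, adjusted p = 0.00541). *ATF6* was at 75.6, 22.6 and 23.3 FPKM against 73.9, 92.5 and 93.3 (1.30 ± 0.39, adjusted p = 0.0275). Thus 2 of the 3 sensors passed the threshold, while FW11K replicate 1 overlapped SW33K for *ATF6*. *XBP1*, the transcription factor activated by ERN1, was at 627, 77.2 and 79.0 FPKM against 447, 673 and 669 (1.90 ± 0.63, adjusted p = 0.0436), with FW11K replicate 1 again inside the SW33K range. *DNAJC3*, a cochaperone that inhibits PERK, was at 54.7, 27.6 and 27.3 FPKM against 214, 331 and 330 (3.01 ± 0.39, adjusted p = 0.000225), and *ERLEC1*, a lectin of ER quality control, at 123, 37.6 and 40.8 against 480, 669 and 668 FPKM (3.36 ± 0.45, adjusted p = 0.000307).

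Fewer genes passed among those that bring proteins into the ER or carry them to the Golgi, and their calls depended on which libraries were present. Of 38 tested genes of entry into the ER 5 were called higher in SW33K (14 after scaling, none averaged), 15 without FW11K replicate 1, 3 without SW33K replicate 1, and none without any 1 of the other 4 libraries. The median of this list was 0.80 over all libraries, −0.43 between the replicates 1 and 1.45 between replicates 2 and 3. *SEC61A1* (1 of 2), the pore of the translocon, was at 182, 56.9 and 58.6 FPKM against 337, 345 and 351 (2.01 ± 0.41, adjusted p = 0.00363). *SSR3*, a subunit of the translocon-associated complex, was at 1220, 188 and 185 FPKM against 584, 1249 and 1229 (1.46 ± 0.61, adjusted p = 0.0971), so that its replicates 1 had the opposite order from replicates 2 and 3. The list holds 11 copies of *SSR1*, which may share reads (not examined), and without them 5 of 27 genes were called (13 after scaling).

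Of 35 tested genes of trafficking between ER and Golgi 6 were called higher in SW33K (19 after scaling, none averaged). Without FW11K replicate 1 there were 14 and 1 higher in FW11K, and without FW11K replicate 2 or 3 or SW33K replicate 2 or 3 there were 2. Those 2 were *SURF4*, a cargo receptor, at 82.0, 43.3 and 43.8 FPKM against 172, 282 and 276 (2.12 ± 0.36, adjusted p = 0.00129), and *MIA2*, which helps load large cargo, at 6.59, 5.86 and 6.65 against 25.2, 29.8 and 33.0 FPKM (2.04 ± 0.30, adjusted p = 0.000463). Both separated the groups in every library. Of the 35 genes, 17 did so with SW33K higher and 0 with FW11K higher, beside 7.5% and 29.4% of all tested genes.

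Of 12 tested genes for ion transport across the tubule, 2 were called higher in SW33K and none in FW11K (4 after scaling, none averaged), beside 2.19% and 10.5% of all tested genes (9.48% and 11.5% after scaling), with a median of 0.06 against −0.28 over all genes. In 4 of the 6 single leave-outs the count was 1, the 4 being those without FW11K replicate 2 or 3 or SW33K replicate 2 or 3, and in the other 2 it was 3. *SLC8A2* (2 of 2), a sodium-calcium exchanger, was at 46.0, 10.6 and 11.8 FPKM in FW11K and at 173, 142 and 142 in SW33K (2.997 ± 0.48, adjusted p = 0.000818), and it was called whichever library was left out. *SLC4A2* (3 of 3), an anion exchanger, was at 22.1, 12.8 and 12.5 FPKM against 35.7, 36.4 and 36.0 (1.19 ± 0.27, adjusted p = 0.00765).

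The salt carriers that loop diuretics and thiazides block in mammals had unlike values. *SLC12A1* (NKCC2), the carrier of sodium, potassium and chloride, was at 19.5, 6.75 and 7.73 FPKM in FW11K and at 18.96, 60.0 and 58.7 in SW33K (1.91 ± 0.50, adjusted p = 0.0159; 2.23 and adjusted p = 0.00159 after scaling). Replicate 1 of the groups was the same to within 1 FPKM, and the other libraries did not overlap. *SLC12A3* (NCC), the sodium and chloride carrier, was at 36.4, 153 and 156 FPKM in FW11K and at 33.9, 149 and 152 in SW33K (−0.06 ± 0.60, adjusted p = 0.959), whereas FW33K was at 21.8, 33.0 and 31.8. Its spread within each group was far larger than the difference between the groups. *ATP1B1* (2 of 2), the beta subunit of the sodium pump, was at 651, 407 and 405 FPKM against 176, 503 and 511 (−0.41). Its replicates 1 had the opposite order from replicates 2 and 3. *KCNK1*, *SLC12A8*, *CLCN6*, *SLC12A4* and *KCNJ15* were not called, and *AQP4* was under the filter.

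Among kinases and partners that set the activity of these carriers, *WNK4* was higher in SW33K. The downstream kinase *STK39* was called lower there, but this call did not hold whichever library was left out. Of 18 tested genes 1 was called higher in SW33K and 5 in FW11K, and after scaling 5 and 5. The 5 became 1 or 2 without FW11K replicate 2 or 3 or any of the SW33K libraries, and none of the genes passed averaged. *WNK4*, which restrains or activates NCC depending on its state, was at 1.53, 0.312 and 0.536 FPKM in FW11K and at 5.33, 6.08 and 6.11 in SW33K (1.99 ± 0.28, adjusted p = 0.000392; 0.0499 averaged), and at 2.56, 2.14 and 1.80 in FW33K. *WNK3* was at 0.571, 0.388 and 0.502 FPKM against 1.5, 3.36 and 3.15 (1.26 ± 0.31, adjusted p = 0.0108; 0.00116 after scaling). *WNK1* (1 of 2) was at 7.63, 8.21 and 7.90 FPKM against 6.17, 11.2 and 11.3 (0.20 ± 0.25, adjusted p = 0.603; 0.00608 after scaling). Only for *WNK1* did the groups overlap.

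WNK kinases act through STK39 (SPAK) and OXSR1 (OSR1), which phosphorylate the carriers. *STK39* was at 3.43, 7.32 and 8.67 FPKM in FW11K and at 0.99, 2.46 and 2.07 in SW33K (−1.36 ± 0.33, adjusted p = 0.00919). The limma adjusted p of *STK39* was 0.193 averaged and reached 0.0597 with 1 library left out. *OXSR1* was at 55.5, 46.9 and 47.8 FPKM against 55.9, 96.3 and 94.6 (0.67 ± 0.33, adjusted p = 0.158; 0.00571 after scaling). The downstream pair thus had differences of opposite sign, of which the one for *STK39* passed in the deposited values. *SGK3*, a kinase regulated through phosphoinositides, was at 19.1, 33.2 and 33.9 FPKM against 6.63, 13.3 and 12.6 (−1.34 ± 0.32, adjusted p = 0.00921), while its aldosterone-induced relative *SGK1* was at 50.97, 32.0 and 32.5 against 16.5, 46.1 and 45.4 FPKM (−0.19 ± 0.36, adjusted p = 0.739). *SGK1* is a case in which replicate 1 and replicates 2 and 3 had opposite orders.

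*ADD1*, the cytoskeletal protein adducin, was at 16.8, 20.6 and 20.5 FPKM in FW11K and at 4.59, 5.57 and 5.85 in SW33K (−1.68 ± 0.28, adjusted p = 0.00112). *MAP3K15* was at 5.90, 3.37 and 3.04 FPKM against 0.488, 0.851 and 0.964 (−1.50 ± 0.30, adjusted p = 0.00367), and *ZEB1* (1 of 2), a repressor of epithelial genes, at 7.38, 6.32 and 6.24 against 1.60, 2.55 and 2.73 FPKM (−1.23 ± 0.24, adjusted p = 0.00281). These 3 separated the groups in each library. Of the 18 tested genes, 8 did so with FW11K higher and 3 with SW33K higher, beside 29.4% and 7.5% of all tested genes. The copies of *NFAT5*, the transcription factor of the response to high tonicity, had differences of opposite sign, and neither passed in the deposited values. *NFAT5* (2 of 2) was at 6.83, 5.65 and 5.76 FPKM against 5.07, 10.8 and 10.5 (0.41, adjusted p = 0.339; 0.00499 after scaling), and *NFAT5* (1 of 2) at 3.58, 3.19 and 2.997 against 1.54, 2.56 and 2.54 FPKM (−0.42). *PRKG1*, *ARRB2* (2 of 2), *PRKAA2*, *PRKCE* (1 of 2), *ARNT* and *NEDD4L* were not called, and *PPP2CA* was under the filter.

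**Figure D4:**
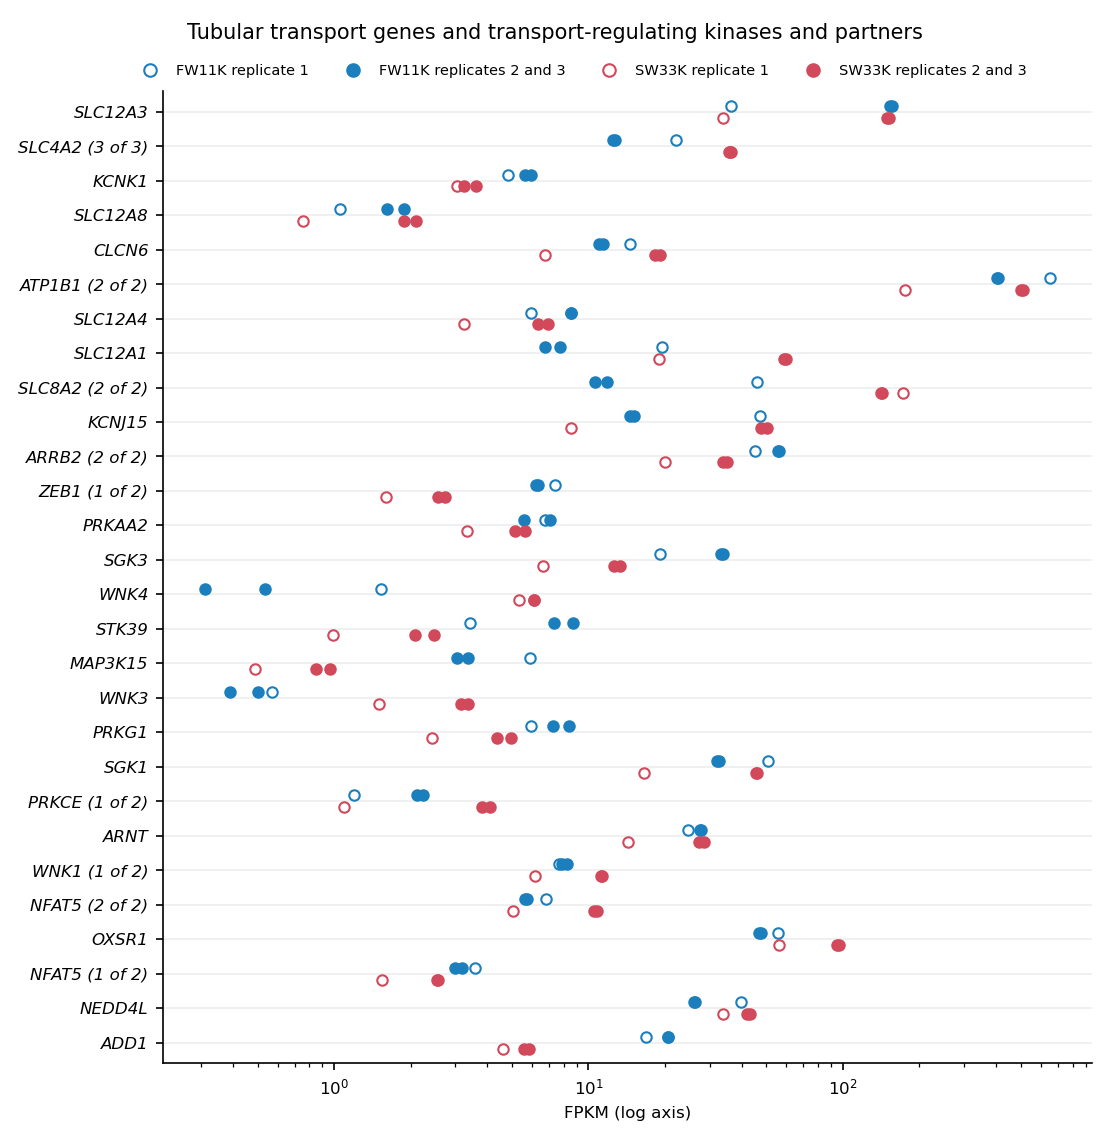
FPKM (horizontal log axis) of 10 of the 12 tested tubular transport genes (upper rows) and the 18 tested kinases and partners (lower rows) in FW11K (blue) and SW33K (red), 1 point per library, replicate 1 as an open circle. The points of *SLC12A3* overlap almost fully, those of *WNK4* are separate (0.312 to 1.53 against 5.33 to 6.11), and those of *SLC12A1* are separate except in replicate 1 (19.5 and 18.96).

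Carriers and peptidases of the proximal tubule, the segment that reclaims amino acids and sugars, differed in sign between the replicates. Of 22 tested genes 3 were called higher in SW33K (4 after scaling, none averaged), 5 without FW11K replicate 1 or SW33K replicate 1, and 1 without FW11K replicate 3. The 3 were *ENPEP* and *SLC7A13*, given above, and *SLC5A6* (1 of 2), a vitamin carrier, at 12.1, 13.5 and 11.7 FPKM against 26.6, 96.2 and 94.7 (2.24 ± 0.42, adjusted p = 0.00234), with FW33K at 5.85, 11.1 and 10.6. The median of the list was 0.39, and it was −0.96 between the replicates 1 and 1.01 between replicates 2 and 3. *SLC6A19* (1 of 3), the main carrier of neutral amino acids, was at 25.6, 14.7 and 15.2 FPKM against 2.94, 28.5 and 27.6 (−0.34, adjusted p = 0.72).

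Podocytes, the cells of the glomerular filter, had 8 tested marker genes, none of which was called in either scaling, averaged or in any single leave-out. Their median was −0.06, with −1.43 between the replicates 1 and 0.48 between replicates 2 and 3. *PODXL*, which coats their foot processes, was at 53.9, 60.5 and 58.9 FPKM against 18.3, 72.8 and 73.2. SW33K replicate 1 was the lowest library, and the gene was detected in all 6.

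The list of 27 tested enzymes of amino acid and one-carbon catabolism also holds some of other pathways, among them *MIOX*. Of these 27, 5 were called higher in FW11K in either scaling and none in SW33K in the deposited values, against 2 averaged (2 were higher in SW33K after scaling, or without replicate 1 of either group). Besides *MIOX*, the 5 higher in FW11K included *CSAD*, which makes the osmolyte taurine, at 60.6, 54.9 and 61.0 FPKM against 3.17, 5.50 and 5.82 (−3.39 ± 0.41, adjusted p = 0.000151; 0.00502 averaged). *GSTZ1*, of tyrosine breakdown, was at 89.2, 75.2 and 77.7 FPKM against 2.49, 20.97 and 23.2 (−2.73 ± 0.59, adjusted p = 0.00534). *ARG2*, the mitochondrial arginase, was at 13.5, 22.9 and 23.2 FPKM against 1.64, 3.75 and 3.55 (−2.40 ± 0.31, adjusted p = 0.000227), and *PRODH2*, of hydroxyproline breakdown, at 37.5, 25.4 and 25.1 against 7.72, 7.55 and 8.70 FPKM (−1.73 ± 0.26, adjusted p = 0.000644). None of these 5 overlapped between the groups. Of the 27 genes, 8 had no overlap with FW11K higher and 2 with SW33K higher, near the 29.4% and 7.5% of all tested genes.

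Other members of the catabolic list had no common direction. *CBS*, which turns homocysteine to cystathionine, was at 196, 54.0 and 54.4 FPKM in FW11K and at 96.7, 537 and 540 in SW33K (1.86 ± 0.62, adjusted p = 0.0457; 0.009 after scaling). *AGXT* (2 of 2), an aminotransferase of glyoxylate, was at 1306, 392 and 399 FPKM against 204, 1050 and 1058 (0.05, adjusted p = 0.966). *UROC1*, of histidine breakdown, was at 248, 78.7 and 78.0 FPKM against 25.5, 148 and 143 (−0.49, adjusted p = 0.603), with FW33K at 4.23, 3.27 and 3.21. In all 3 genes replicate 1 was the highest library of FW11K and the lowest of SW33K. The median of the list, −0.17 over all libraries, was −2.05 between the replicates 1 and 0.57 between replicates 2 and 3.

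**Figure D5:**
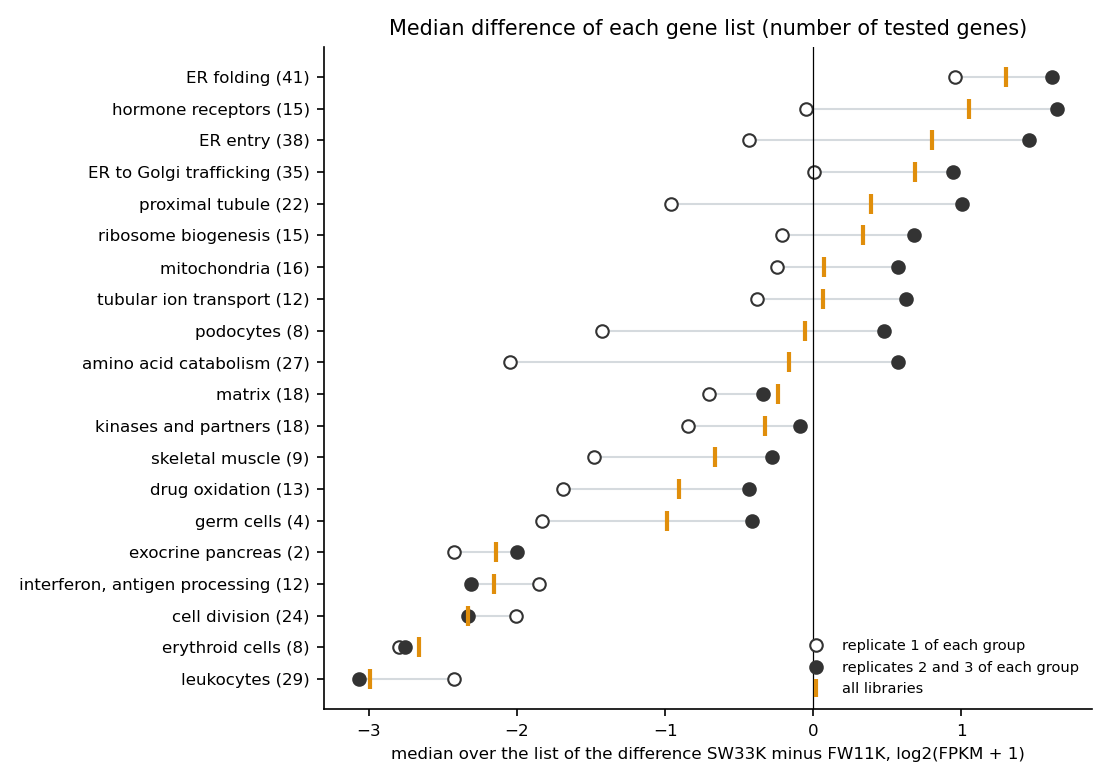
Median difference SW33K minus FW11K on the log2(FPKM + 1) scale (horizontal axis) of each of the 20 gene lists, between the replicates 1 (open), between the means of replicates 2 and 3 (filled) and over all libraries (bar), in deposited values. Open and filled points lie on the same side of 0 for 12 lists, among them leukocytes (−2.42 and −3.06) and ER folding (0.95 and 1.61), and on opposite sides for 8, among them proximal tubule (−0.96 and 1.01) and amino acid catabolism (−2.05 and 0.57).

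After scaling, the replicates 1 and replicates 2 and 3 gave list medians of the same sign in 17 of 20 lists. The other 3 were proximal tubule carriers, amino acid catabolism and podocytes.

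Hormone receptors and vasoactive signals gave 2 of 15 genes higher in SW33K and 1 higher in FW11K (4 and 1 after scaling, 1 averaged), beside 2.19% and 10.5% of all tested genes (9.48% and 11.5% after scaling). Without FW11K replicate 1 there were 8 and 1, and without SW33K replicate 1 there were 5 higher in SW33K. *TAC1*, the precursor of substance P, was at 2.28, 1.05 and 1.15 FPKM in FW11K and at 15.9, 25.3 and 25.9 in SW33K (3.23 ± 0.29, adjusted p = 3.01e-05; 0.00499 averaged), with FW33K between, at 11.1, 10.04 and 8.70. The growth factor *PDGFB* (1 of 2) was at 0.64, 1.39 and 1.26 FPKM against 6.59, 6.48 and 6.09 (1.83 ± 0.25, adjusted p = 0.000354). Neither overlapped between the groups. Of the 15 genes, 4 had no overlap with SW33K higher and 1 with FW11K higher, beside 7.5% and 29.4% of all tested genes. *EDN2*, an endothelin, was at 2.68, 3.05 and 3.24 FPKM against 0.41, 0.818 and 0.882 (−1.24 ± 0.28, adjusted p = 0.00668), and it was higher in FW33K than in either, at 6.97, 7.51 and 6.11.

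Of 13 tested genes of drug and steroid oxidation 1 was called in the deposited values. It was *CYP4F2*, a fatty acid hydroxylase, at 144, 212 and 215 FPKM in FW11K and at 11.2, 15.2 and 14.3 in SW33K (−3.70 ± 0.34, adjusted p = 3.01e-05; 0.00318 averaged), with FW33K at 26.2, 62.2 and 57.0. *CYP2W1* (3 of 5) was at 28.3, 107 and 107 FPKM against 4.38, 79.6 and 79.1 (−1.10, adjusted p = 0.37). *MAOA*, which degrades monoamines, was at 15.0, 7.76 and 9.17 FPKM against 13.9, 98.0 and 94.8 (2.21, adjusted p = 0.0148). For *CYP2W1* and *MAOA* the groups overlapped through replicate 1.

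Matrix genes split, with 3 of 18 higher in SW33K and 3 in FW11K (4 and 4 after scaling, none averaged). In the deposited values 1 was left without FW11K replicate 2 or 3, and 3 without SW33K replicate 2 or 3. *COL9A2* was at 40.3, 4.98 and 4.84 FPKM in FW11K and at 113, 274 and 276 in SW33K (4.19 ± 0.76, adjusted p = 0.00176). *LAMA5*, a laminin chain of basement membranes, was at 5.62, 3.89 and 4.22 FPKM against 25.9, 16.6 and 16.5 (1.87 ± 0.27, adjusted p = 0.000471). In contrast, *COL1A1* (1 of 2), a chain of the main fibrillar collagen, was at 24.9, 31.0 and 31.4 FPKM against 3.66, 11.6 and 11.7 (−1.72 ± 0.37, adjusted p = 0.00506). *HAS2*, a hyaluronan synthase, was at 1.55, 2.90 and 2.27 FPKM against 9.08, 1.4 and 1.53 (0.30, adjusted p = 0.703), far below FW33K at 273, 646 and 602. *PI16*, a peptidase inhibitor, was at 0.357, 2.91 and 2.12 FPKM against 87.5, 1.42 and 2.12 (1.78, adjusted p = 0.215), so that SW33K replicate 1 stood apart from the other 5 libraries. FW33K was at 203, 181 and 194 FPKM for *PI16*.

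Mitochondrial genes were called higher in SW33K in 4 of 16 cases and higher in FW11K in 2 (5 and 2 after scaling, none averaged). This stands beside 2.19% and 10.5% of all tested genes, so that the share higher in FW11K was near that of all genes. Without FW11K replicate 3 the 4 became 0, and without FW11K replicate 2, SW33K replicate 2 or SW33K replicate 3 they became 1. *ACSL1* (2 of 2), which activates fatty acids, was at 53.4, 21.7 and 22.2 FPKM against 91.7, 155 and 157 (2.11, adjusted p = 0.00186). *COX6B1*, a subunit of cytochrome oxidase, was at 55.3, 130 and 130 FPKM against 11.6, 14.9 and 14.2 (−2.77 ± 0.37, adjusted p = 0.000265), and *PPARA* (2 of 2), a regulator of fatty acid oxidation, at 17.8, 19.6 and 18.7 against 2.15, 7.56 and 7.43 FPKM (−1.69, adjusted p = 0.0037). Thus subunits of the respiratory chain, *NDUFS1* and *COX6B1*, differed in opposite directions. None of 15 ribosome biogenesis genes passed in the deposited values and 7 were called higher in SW33K after scaling (9 without FW11K replicate 1, 2 or 3 without any other library). *NCL* (nucleolin) was at 258, 269 and 279 FPKM against 262, 466 and 476 (0.53, adjusted p = 0.219; 0.88 and 0.00135 after scaling).

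Markers of tissues near the kidney were read for what else the samples could hold. None of 9 tested skeletal muscle genes was called, and the creatine kinase *CKM* (1 of 2) was at 4.47, 1.39 and 1.63 FPKM against 0.338, 0.708 and 0.876. Among 4 tested germ cell genes *HORMAD1*, of meiotic chromosomes, was at 2.24, 4.60 and 4.75 FPKM in FW11K. In SW33K it was at 0.105 and 0.0891 in replicates 2 and 3 and is listed at 0 in replicate 1 (adjusted p = 0.000695). Its mean was 3.86 FPKM in FW11K, against 0.326 in FW00K, 0.0284 in FW33K and 0.0646 in SW33K. It passed the filter on low values only through FW11K, so its call is not independent of that filter. The germ cell helicase *DDX4* was at 4.02, 2.28 and 2.55 FPKM in FW11K, and in SW33K it was at 0.00912 and 0.0218 and is listed at 0 in replicate 3 (−1.94 ± 1.04, adjusted p = 0.196). FW11K and SW33K thus did not overlap for *DDX4*. FW00K was at 43.0, 0.0624 and 0.0184 FPKM, a spread that entered the estimate shared by all groups. With 1 library left out the limma adjusted p of *DDX4* ran from 7.3e-05 to 0.311. *ASZ1* (1 of 2) was at 7.04, 6.70 and 6.43 FPKM against 1.05, 13.8 and 13.1 (−0.03 ± 0.64, adjusted p = 0.98), and *FBXO47* at 1.12, 0.815 and 0.694 against 2.26, 2.71 and 2.39 FPKM (0.88 ± 0.32, adjusted p = 0.0615). The 4 tested genes thus did not share a direction. The 5 under the filter were *DMC1*, *TDRD6*, *SMC1B*, *PIWIL1* and *TEX11*. They were at 0.748 to 2.89 FPKM in FW11K and at no more than 0.138 in SW33K, with no overlap in any of the 5. Of all tested genes 29.4% had no overlap with FW11K higher (24.8% after scaling), and these 5, near the floor, were not tested. Of 2 tested exocrine pancreas genes, *CELA1* (2 of 2), an elastase, was at 0.803, 6.61 and 6.05 FPKM in FW11K and at 0.0886, 6.16 and 5.40 in SW33K (−0.32 ± 0.67, adjusted p = 0.769), with the groups overlapping. The other, *CPA1*, a digestive carboxypeptidase, was at 162, 286 and 293 FPKM in FW11K and at 8.31, 18.5 and 18.6 in SW33K (−3.97 ± 0.42, adjusted p = 6.38e-05; 0.00317 averaged), and at 23.7, 60.3 and 54.2 in FW33K. The pancreas markers thus did not differ alike, and the part of these markers in other results was not tested.

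The most abundant transcripts of both groups were led by genes for which the sources used here give no symbol. ENSGACG00000019061 was at 767, 26.1 and 39.7 FPKM in FW11K and at 50698, 4952 and 5463 in SW33K (6.88 ± 1.23, adjusted p = 0.00169). ENSGACG00000019063 was at 214, 7.41 and 9.91 FPKM against 24918, 1833 and 2215 (7.43 ± 1.22, adjusted p = 0.001). Both were about an order of magnitude higher in SW33K replicate 1 than in the other SW33K libraries. In FW33K all 3 libraries were high, at 62488, 42149 and 44353 FPKM for ENSGACG00000019061 and at 20490, 12713 and 14360 for ENSGACG00000019063. Among those higher in FW11K, ENSGACG00000013902 was at 7911, 12287 and 13204 FPKM against 118, 459 and 484 (−5.19 ± 0.95, adjusted p = 0.00196). ENSGACG00000014492 was at 13088, 12308 and 12696 FPKM against 1102, 2344 and 2440 (−2.78 ± 0.68), just outside the threshold in the deposited values and called after scaling (adjusted p = 0.0093).

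FW33K shares its population with FW11K and its salinity with SW33K, so the difference can be laid out in steps, which share libraries with each other and with the whole. Between FW11K and FW33K 278 of the 15503 tested genes were called higher in FW33K and 3620 higher in FW11K. After scaling the counts were 1362 and 891, so that the majority direction turned. Between FW33K and SW33K 161 were called higher in SW33K and 60 higher in FW33K, and after scaling 236 and 434, which turned as well. The list counts that follow stand beside these counts over all 15503 genes. Of the 29 leukocyte genes 27 were called higher in FW11K in the first step (19 after scaling). In the second step none were called in the deposited values and 8, higher in FW33K, after scaling. The leukocyte median was −2.79 in the first step and −0.76 in the second, against −0.82 and 0.47 over all genes. After scaling these were −1.91 and −1.27, against −0.04 and −0.02. Of the 41 ER folding genes 19 were called higher in FW33K in the first step (35 after scaling). In the second step none were called in the deposited values and 2, higher in FW33K, after scaling. Of the 27 catabolic enzymes 2 were called higher in FW33K and 11 higher in FW11K in the first step (4 and 8 after scaling). In the second step 5 were called higher in SW33K and none in FW33K (4 and 3 after scaling). *HSPA5* was at 368, 818 and 780 FPKM in FW33K, between FW11K and SW33K, and *CDK1* at 5.79, 7.74 and 7.61, next to its SW33K values.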

How the data were processed

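The authors deposited FPKM values per Ensembl gene for 12 libraries. By the study's methods and processing notes, reads holding a base of quality under 20 were removed, the others were trimmed to 75 bases and aligned to BROADS1, with polymorphic sites masked, by TopHat2 2.0.3 (2 mismatches for freshwater, 3 for saltwater fish), and FPKM were estimated with Cufflinks 2.0.2. Lanes were shared by every 4 samples and are not given per sample.

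Of 20860 genes, 15503 averaged 1 FPKM or more across the series and were tested on log2(FPKM + 1) with limma 3.58.1 (R 4.3.3; lmFit, eBayes with trend; Benjamini-Hochberg adjusted p under 0.01), all 12 libraries in one fit, with and without median-ratio scaling. The calculation was tested on simulated data. FPKM keep no counts, so no counting interval is given; the study lists read numbers per library, which were not used in the tests. Symbols came from 1403 pairs of identifier and symbol in the study's tables.

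Named were the 10 largest rises and falls among genes with a symbol that were called in both scalings with no overlap, up to 4 called members of each of 20 lists (or its 2 most abundant), all tubular transport and kinase genes, and the 5 most abundant genes of each group, 110 in all, some of which are not reported here. The other germ cell and exocrine pancreas markers and a further 23 genes were added after their values were seen (*NCF1*, *CYBB*, *CYBA*, *CORO1A*, *BLNK*, *BANK1*, *HSPA5*, *HSP90B1*, *XBP1*, *ATF6*, *ERN1*, *EIF2AK3*, *SSR3*, *CHEK1*, *HBM*, *PRODH2*, *CBS*, *AGXT*, *UROC1*, *HAS2*, *PI16*, *SLC6A19* and *MAOA*). Members and lists were chosen with earlier results of these data known. Library distances used the 2000 most variable genes (numpy 2.4.6, pandas 2.3.3, Python 3.11.15), and figures matplotlib 3.10.9. Alternatives were other scalings, pseudocounts, filters, thresholds and fits, averaged replicates, a replicate block and each library left out. Count-based tests were not used.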

Additional observations from a re-analysis of the deposited data

How the results depend on the processing

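Of 1961 calls in the deposited values, the count was 3116 after quantile normalization, 3254 after median-ratio scaling, 630 with a fit of the 6 libraries alone, 3828 at an adjusted p under 0.05 and 220 with replicates 2 and 3 averaged. Of 3254 calls after scaling, it was 1041 with factors set on the 6 libraries, 5917 at 0.05 and 0 averaged. A pseudocount of 0.1 gave 1962, no filter 1797, a minimum of 5 FPKM 1640. Leaving out 1 library gave 811 to 3463 calls in deposited values. In scaled values it gave 1366 to 5788, with 1403 without FW11K replicate 2, 1710 without SW33K replicate 2 and 1697 without SW33K replicate 3. Of genes in lists, 118 were called, 76 after scaling to the 6 libraries, 54 in the 6 libraries alone, 28 averaged, 0 averaged and scaled, 181 with a replicate block and scaling, and 68 to 165 with 1 library left out. These alternatives differ in the libraries that set the spread or the level, and the cause of each move was not tested beyond that.

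Deviations of same-numbered FW11K and SW33K libraries correlated at −0.05, 0.15 and 0.01, and those of differently numbered libraries at −0.17 to 0.09. These values do not settle whether the numbers pair the samples. The replicate block gave 2466 calls (3497 with scaling). Named genes under other alternatives kept side and direction in 1291 pairs of gene and setting, lost the call in 239 and gained it in 52 (leaving out 1 library: 2831, 256 and 105), and no call turned to the opposite direction. Lists without the copies of *IGKC*, *SSR1*, *PSMB8* and *TAPBP* were added after seeing the data. Fold changes of genes under about 1 FPKM rest on the pseudocount.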
